A study of Mus musculus with 8 samples.

Results

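The miRNAs described here are those named miR-297, miR-466, miR-467 and miR-669 on a mouse miRNA array, whatever their letter, arm or name version. They were chosen by name among the mouse miRNA names that the array carries, and 61 of 1023 names qualified. The miR-297 family had 4 names, the miR-466 family 22, the miR-467 family 12 and the miR-669 family 23. Total RNA of whole kidneys from CD-1 mice, an outbred stock, was hybridised to one-colour Cy3 arrays. The 4 control arrays held RNA of mice given physiological serum. The 4 tacrolimus arrays held RNA of mice treated for 28 days with tacrolimus, a calcineurin inhibitor used against transplant rejection, at a daily dose of 1 mg per kg. The study asked whether kidney injury under tacrolimus goes with altered miRNA levels. The labels do not say that replicates were separate mice, so p-values cover only sample-to-sample spread, which may be technical in part or in full. Whole kidney holds many cell types, and fewer cells of a type cannot be told apart from less RNA per cell.

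These families are best known from the large miRNA cluster in an intron of Sfmbt2, a Polycomb group gene that is imprinted in the mouse placenta. The cluster is rodent-specific, arose by repeated duplication of a short unit, and is known chiefly from embryonic stem cells and placenta. Many of its miRNAs hold short runs of UG or CA repeats. One miRNA of the group can therefore be hard to tell from another, or from other RNA with the same repeat, by hybridisation. The cluster's name covers most of the genes but not all of them. In the RefSeq gene table (GRCm38.p6), 71 of 81 genes of the 4 families lie within Sfmbt2 on chromosome 2 and 10 lie elsewhere. Mir466i is on chromosome 13, Mir467f on chromosome 11 and Mir669n on chromosome 3. The name with the clearest signal here, miR-466i-5p, and the fainter miR-467f and miR-669n therefore have genes outside the Sfmbt2 cluster. The group is called below by its 4 family names.

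The array reads each miRNA with 1 or more short probes, whose sequences are listed in the array files. Of 2154 probes of names with a RefSeq mature sequence, 99.2% were the exact complement of the miRNA's 3′ end. How far a probe reaches into the seed at the 5′ end depends on its length. The longest probe of miR-467g, of 21 letters, covers the whole miRNA with its seed. The probes of the 4 families had 13 to 23 letters. A run of at least 6 alternating C and A, or of G and T, was present in a probe of 45 of the 61 names (73.8%), against 23 of the other 962 mouse names (2.39%). No probe sequence was shared between names (0). The longest probes of the UG-rich miRNAs, which carry CA repeats, are shown first because they include the 1 name detected everywhere. They are followed by the probes of miR-574-5p, miR-3082-5p and miR-1187, which are no members but carry similar runs. Capitals mark the longest alternating run of C and A or of G and T, and sequences run 5′ to 3′ as in the array files.
miR-466i-5p: CACACACACACACACA
miR-669n: acacacatcCACACACAa
miR-574-5p: acacactCACACACACAC
miR-3082-5p: acacagACACACACAC
miR-1187: ttacacacatACACACACA

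The probe of miR-466i-5p is the repeat itself, with no other letter in 16 letters, and the second probe of that name is 1 letter shorter. The array's annotation gives neither probe a place in the mouse genome, while it places both probes of miR-669n on chromosome 2 at chr2:10430951-10430967 (mm9). That annotation also lists miR-669c-5p for the probes of miR-669n, whose own gene lies on chromosome 3 in RefSeq. The mature sequences that RefSeq gives for miR-574-5p and for the detected members in its table are shown to let the repeat be read in the RNA. Capitals mark the seed, bases 2 to 8.
miR-574-5p: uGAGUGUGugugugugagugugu
miR-669n: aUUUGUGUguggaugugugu
miR-467f: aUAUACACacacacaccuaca

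RefSeq mature sequences were matched for 6 of the 61 names, which were miR-466i-3p, miR-466j, miR-466k, miR-467f, miR-467g and miR-669n. No 2 of these 6 share a seed.

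Members with AC-rich mature strands are read by probes with GT runs. The longest probe of each detected member is shown with the undetected names whose longest probe differs from it by at most 4 letters. Letters were compared position by position from the probe's 5′ end, and each letter of length difference was counted as 1. Probes were not shifted against each other, so names that share a long stretch at another position are left out. Among these are the undetected miR-467c-3p, miR-467d-3p and miR-467e-3p, whose probes share most of their letters with that of miR-467a-3p.
miR-467f: tgtagGTGTGTGTGTGT
miR-467a-3p: tgtagGTGTGTGTatgtata
miR-669c-3p: tttactTGTGTGTGTGTG
miR-669f-3p: atacGTGTGTGTGTatgt
miR-669p-3p: atacGTGTGTGTGTGTatg
miR-297a-5*_v17.0: atgggtaTGTGcgtatgt
miR-466h-3p: GTGTGTGTGTGcgt

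The detected names miR-467f and miR-467a-3p were 4 letters apart and shared a run of 13 letters. The undetected miR-669p-3p was 3 letters from miR-669f-3p and shared 14 letters with it. Last come the probes of the remaining detected members, from 5′ strands of the miR-467 family and from miR-466d-3p. Undetected names within 4 letters by the same count are again shown. That count leaves out miR-467a-5p, which shares most of its letters with miR-467b-5p when shifted, and likewise miR-466b-3p beside miR-466d-3p.
miR-467e-5p: acatatacatgctCACACt
miR-669l-5p: acatatacatgCACACAC
miR-669o-5p: acataaacatgCACACAC
miR-466c-5p: atatgtacatgCACACACA
miR-467b-5p: catatACAtgcaggcact
miR-466d-5p: catgtacatgtacgCACA
miR-466d-3p: ctaTGTGTGcgtgtat

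The probe of miR-467e-5p differed from that of miR-669l-5p by 2 letters and from that of miR-669o-5p by 3. The probe of miR-467b-5p holds no long CA or GT repeat: its longest alternating run of C and A, or of G and T, was 3 letters. The annotation puts that probe at the single place chr2:10402887-10402903 (mm9). The probe of miR-467e-5p was listed at chr2:10427362-10427379 and the 18-letter probe of miR-669f-3p at chr2:10388918-10388934, each as its only place. The probes of miR-467a-3p were listed at 10 places on chromosome 2, so this name pools the copies of its gene. Over the 61 names, 22 had every probe at 1 place, 11 had a probe at more than 1 place (17 at most) and 28 had probes with no listed place. For 12 names the annotation listed a second miRNA with an accession of its own, among them miR-669f-3p, whose probes are also listed for miR-669a-3p and miR-669o-3p.

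Few members were detected in these kidneys. The scanner software flags a name as detected on an array when the total signal of any of its probes exceeds 3 times that signal's error, a rule that accounted for the flag in 100% of 8184 pairs of name and array. By this flag 9 of 61 members (14.8%) were detected on at least 1 of the 8 arrays, against 278 of all 1023 mouse names (27.2%). A single member, miR-466i-5p, was detected on all 8 arrays, as were 167 of all names (16.3%). The remaining 52 members (85.2%) were flagged on no array. Their 140 probes had a median signal of -1.25 over the 8 arrays, from -7.55 to 13.2, on a scale where 0 is the local background. The 1851 probes of the other names never detected had a median of -0.898.

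By family, 3 of 22 miR-466 names, 4 of 12 miR-467 names, 2 of 23 miR-669 names and 0 of 4 miR-297 names were detected on at least 1 array. All names never detected have a total gene signal of 0.1, the lowest value the software writes, on every array. In the miR-297 family these included miR-297a-3p, miR-297a-5*_v17.0 and miR-297b-5p, whose brightest probes averaged -1.08, -2.83 and 2.83. In the miR-466 family miR-466a-5p, miR-466b-3p and miR-466c-5p, the first by name, averaged 1.03, 5.29 and 1.01 on their brightest probes. The same holds for miR-467a-5p, miR-467b-3p and miR-467c-3p at 9.30, -3.55 and 6.65, and for miR-669a-3-3p, miR-669a-5p and miR-669b-3p at 1.04, 4.58 and -1.91. By the software's rule none of these names stood above background.

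As a check of the tissue, all 4 tubule markers on the array (miR-192-5p, miR-194-5p, miR-204-5p and miR-30a-5p) were detected on every array. The 6 miRNAs of the miR-290 to miR-295 cluster, which mark embryonic stem cells, were flagged on no array and stood at 0.1 throughout. The liver marker miR-122-5p was flagged on 1 control and 2 tacrolimus arrays, at 13.4 or less in total gene signal. Of the striated muscle markers, miR-1a-3p was flagged on 2 control and 4 tacrolimus arrays, at 16.6 or less, and miR-133a-3p on no array. The sum of the 3 leukocyte markers (miR-142a-3p, miR-223-3p and miR-150-5p) ranged from 195 to 740 in total gene signal on control arrays and from 476 to 957 on tacrolimus arrays, while the sum of the 2 erythrocyte markers (miR-451a and miR-144-3p) ranged from 2125 to 9011 and from 1875 to 3408. The part of either cell type in the values below was not tested. The array files place all control arrays in slide row 1 and all tacrolimus arrays in row 2, so row and treatment cannot be told apart.

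miR-466i-5p, the pure repeat, gave the clearest signal of the group. Its total gene signal, the sum over its detected probes, was 89.6, 65.2, 52.0 and 56.5 on control arrays 1 to 4 and 116, 132, 77.4 and 68.5 on tacrolimus arrays 1 to 4. The control mean was 65.8 ± 16.8 (SD, n = 4) and the tacrolimus mean 98.3 ± 30.2 (SD, n = 4), and the groups overlapped, since control 1 lay above tacrolimus 3 and 4. By mean total gene signal it ranked 125th of 1023 names on control arrays and 110th on tacrolimus arrays. These totals are not scaled between arrays. On control 3 and tacrolimus 4 the total per unit of mean spot signal was 0.283, against 0.385 to 0.390 on the other 6 arrays, as medians over the 213 to 266 brightest probes of each array, so totals are lower there at equal spot signal.

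The other 8 detected members were faint and were flagged on 1 to 5 arrays each. None of their total gene signals exceeded 17.5, the value of miR-669n on tacrolimus 2. miR-467a-3p, a 3′ strand with several gene copies in the cluster, was at 7.25, 10.1 and 7.96 on control 1, 2 and 4 and at 4.40 and 9.52 on tacrolimus 1 and 2. miR-467b-5p was at 11.7 and 11.0 on control 2 and 4 and at 8.61 and 11.7 on tacrolimus 1 and 2. Where they were flagged, the values of both strands overlapped between the groups.

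miR-467f was at 8.03 and 7.71 on control 2 and 4 and at 9.48, 9.96 and 8.53 on tacrolimus 1, 2 and 3. miR-467e-5p was flagged on control 2 at 7.56 and on tacrolimus 2 at 8.00. miR-669f-3p was at 14.8 and 12.03 on control 2 and 4 and at 9.32 and 13.5 on tacrolimus 1 and 2. Thus control 2 and tacrolimus 2 each carried a flag for all of miR-467a-3p, miR-467b-5p, miR-467e-5p, miR-467f and miR-669f-3p.

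The remaining 3 names were flagged in 1 group each. miR-669n was at 8.26 and 17.5 on tacrolimus 1 and 2, and miR-466h-3p was at 7.06 and 6.72 on tacrolimus 2 and 3. miR-466d-3p was flagged on control 1 alone, at 11.7. That value came from 1 of its 4 probes, the 15-letter one, whose 9 kept spots had a median of -3.68 and a highest spot of 194. Only 2 of those 9 spots were well above background, and the mean of the 16-letter probe, which extends the 15-letter one, was -3.25 on the same array.

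Per array, 3, 6, 1 and 5 members were detected on control arrays 1 to 4 and 6, 8, 3 and 1 on tacrolimus arrays 1 to 4. Over groups, 7 members were detected on at least 1 control array and 8 on at least 1 tacrolimus array, 6 of them in both. The same split was not counted over all mouse names, so it is not read as particular to the members. Array noise is given beside these counts as the SD of the negative control spots. It was 10.5 on control 1, 9.69 on control 3 and 20.01 on tacrolimus 4, where 3, 1 and 1 members were flagged. It was 4.45 to 5.46 on the other 5 arrays, where 3 to 8 were flagged. Over all mouse names the count detected ran from 179 on tacrolimus 4 and 183 on control 3 to 259 on tacrolimus 2.

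Flag and spot signal did not always go together, since the flag weighs the total signal against its error. The brightest probes of the 7 faint members other than miR-466d-3p had a median spot signal of 23.8 on control 1 and 22.0 on tacrolimus 4, with median total errors of 4.31 and 5.29, and 1 and 0 of the 7 names were flagged. On tacrolimus 2 the median signal was 25.7 and the error 2.45, and all 7 were flagged. Signals were lower on control 3, at a median of 17.5 with an error of 2.88 and 0 names flagged, and on tacrolimus 3, at 12.2 with an error of 2.02 and 2 flagged. Signal, its error and the factor between spot signal and total all differ between arrays, and their separate parts in the flags were not tested. For miR-669n, the 18-letter probe averaged 27.9 on control 1 and 25.9 on tacrolimus 4, where the name was not flagged, and 25.7 and 21.3 on tacrolimus 2 and 1, where it was. The error of the total was 4.44 and 5.33 on the first pair and 2.45 and 2.73 on the second. Although miR-669n was flagged on tacrolimus arrays alone, its probe averaged 19.8 ± 5.50 (SD, n = 4) on control and 21.4 ± 6.22 (SD, n = 4) on tacrolimus arrays, a difference smaller than either SD. The 14-letter probe of miR-466h-3p was likewise at 15.5 ± 5.46 (SD, n = 4) and 17.3 ± 0.658 (SD, n = 4), and its highest value was on control 1, at 23.6.

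**Figure D1:**
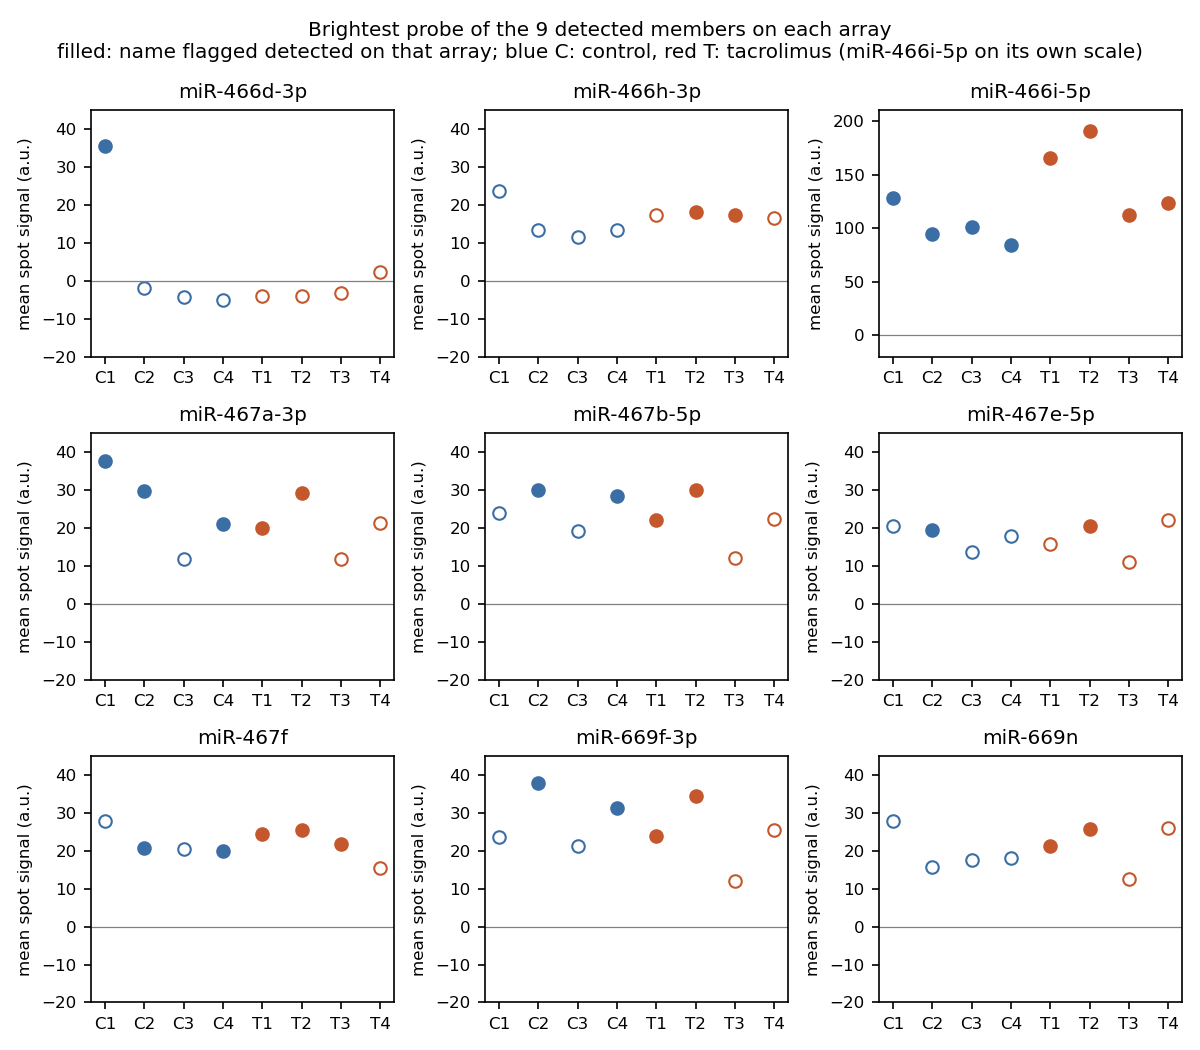
Mean spot signal (arbitrary units, local background subtracted) of the brightest probe of each of the 9 detected members on the 4 control arrays (C, blue) and 4 tacrolimus arrays (T, red); filled circles mark arrays on which the name was flagged as detected. miR-466i-5p lies between 83.9 and 190 on its own scale, 7 other members lie between 11.1 and 37.9 on all arrays, and miR-466d-3p is near or below 0 on all arrays except control 1.

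**Figure D2:**
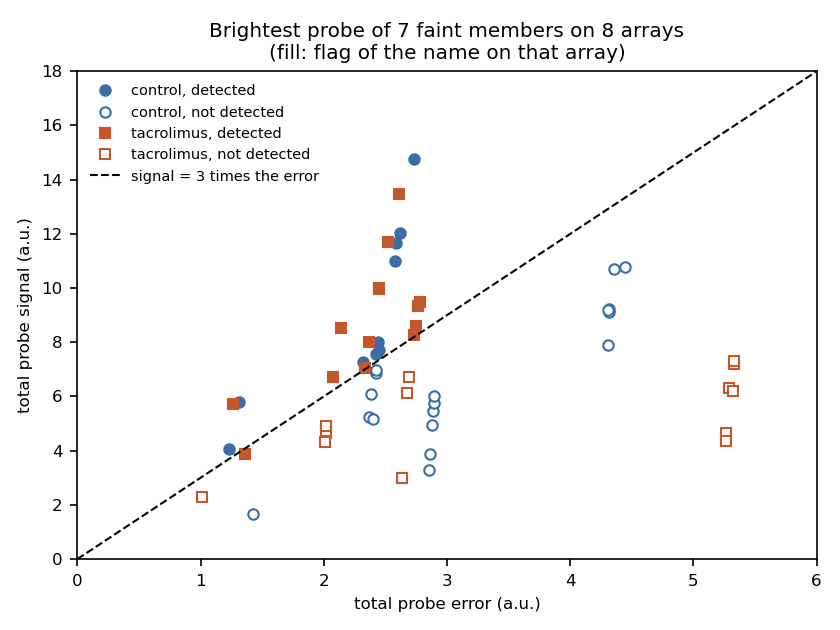
Total probe signal against its error (both in arbitrary units) for the brightest probe of the 7 faint members on the 8 arrays, circles for control and squares for tacrolimus, filled where the name was flagged; the dashed line is a signal of 3 times the error. All open points lie below the line, those farthest right are the arrays of control 1 and tacrolimus 4, and 1 filled point lies just below the line because another probe of that name passed.

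Control and tacrolimus could be compared by a model for 1 member. limma was fitted across the 194 mouse names whose brightest probe had at least 0.5 of its kept spots well above background on at least 4 of 8 arrays. Of these, 6 were called at an adjusted p under 0.05 (3.09% of those tested), all 6 higher with tacrolimus. That count was not stable: over 22 alternative settings it ran from 0 to 8, and in 14 of them, the replicate block among them, it was 0. miR-466i-5p was the only member of the 61 among the 194, so no share of members can be read against that background. Its level, as log2 of the signal over the array's reference, was -4.31, -4.34, -3.82 and -4.37 on control arrays 1 to 4 and -3.76, -3.58, -3.88 and -4.16 on tacrolimus arrays 1 to 4. The reference of an array is the 75th percentile over those 252 probes that were detected on every array. Control 3 lay apart from the other controls and above tacrolimus 3 and 4, so the groups overlapped.

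The mean was -4.21 ± 0.26 (SD, n = 4) in control and -3.84 ± 0.25 (SD, n = 4) in tacrolimus. The difference was 0.37 on the log2 scale (SE 0.16, 95% interval 0.02 to 0.72), a 1.29-fold higher level with tacrolimus. limma's unadjusted p was 0.0417 and the Benjamini-Hochberg adjusted p over the 194 names was 0.300, so the difference was not called and 0 of 1 member tested passed the threshold. The same fit gave an unadjusted p under 0.05 for 30 of the 194 names, 21 higher and 9 lower, and a median difference of 0.04 over all 194. Both probes of miR-466i-5p moved the same way, by 0.44 for the 15-letter and 0.37 for the 16-letter probe. The shorter lies within the longer and both were read on the same arrays, so they are not independent measures. Without control 3 the difference was 0.49 (limma adjusted p = 0.109), without tacrolimus 2 it was 0.28 (0.606), and with normexp background correction it was 0.15 (0.650). With the replicate number, which is also the slide column, as a block it was 0.37 (0.252).

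miR-574-5p, whose mature strand holds UG runs, was 1 of the 6 called names, a call that held in 2 of the 21 alternatives in which it was tested. It is described here because it has the longest stretch of letters that could pair with a probe of miR-466i-5p among the RefSeq mature miRNAs of the tested names, 13 in a row. Its levels were -5.42, -5.75, -5.48 and -5.83 on control arrays and -5.08, -4.98, -5.30 and -5.11 on tacrolimus arrays, and the groups did not overlap. The difference was 0.50 (SE 0.11, limma adjusted p = 0.0478). The adjusted p was 0.0987 with the replicate number as a block, and with a floor 2 times as high all of its arrays stood at the floor. With normexp background correction the difference was 0.07, with a limma adjusted p of 0.812. The UG-rich names miR-3082-5p and miR-1187 were each flagged on 3 tacrolimus arrays, and on 1 and 0 control arrays, with total gene signals of at most 15.4 and 10.1. Neither was tested in the fit, and their scaled levels did not follow the flags. miR-3082-5p averaged -5.81 in control and -5.92 in tacrolimus, with 5 arrays at the floor. miR-1187 stood at the floor on 7 arrays and above it on tacrolimus 4 alone, where it was not flagged. Unscaled, their brightest probes averaged 22.0 and 16.3 on control and 32.5 and 29.7 on tacrolimus arrays. How much of the signal of the miR-466i-5p probes came from miR-574-5p or any other UG-repeat RNA was not tested.

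**Figure D3:**
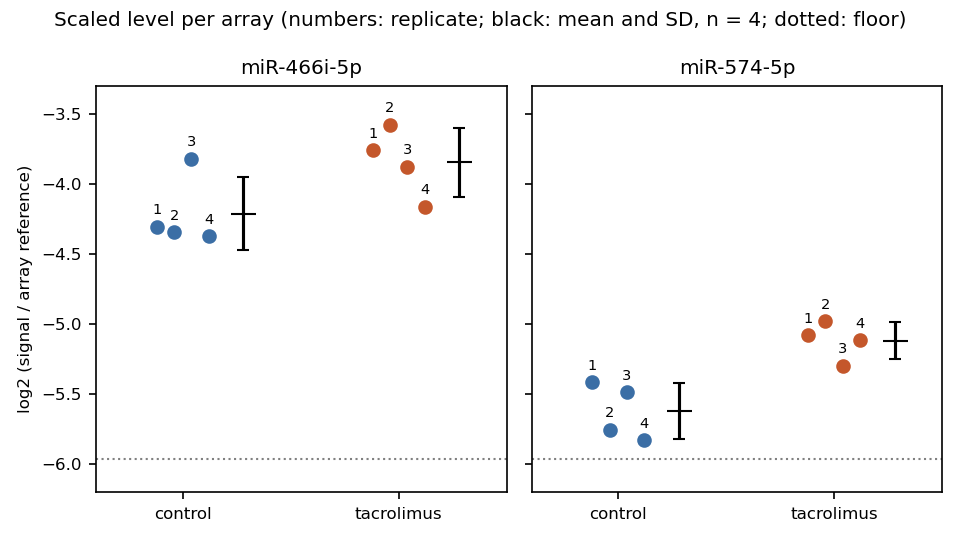
Level of miR-466i-5p (left) and miR-574-5p (right) on each array as log2 of the signal over the array's reference, with the replicate number beside each point, the mean and SD of 4 arrays in black and the floor of -5.96 dotted. For miR-466i-5p control 3 lies among the tacrolimus arrays, while for miR-574-5p all 4 tacrolimus arrays lie above all 4 control arrays.

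The other 8 detected members were not tested in that fit, since the brightest probe of each was too rarely well above background. With names admitted by the software's flag on at least 4 arrays, 226 names entered, 5 of them members, and limma called 0 of the 5, with 0 at an unadjusted p under 0.05. It also called 0 of all 226, so the count says nothing particular to the members. At the floor of -5.96, 1.60% of the reference, miR-467a-3p and miR-467f stood on all 8 arrays and have no measured difference there. miR-467b-5p was above the floor on control 4 alone. miR-669f-3p was above it on control 2 and 4, with a difference of -0.12 (SE 0.07, limma adjusted p = 0.504). By the stricter count of well-above-background spots, 3 members were detected on any array: miR-466i-5p on all 8, miR-669f-3p on 2 control and 1 tacrolimus array, and miR-467b-5p on 1 of each.

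The signal of repeat probes was set against the length of the run, over all mouse probes. Probes differ in how well they bind, so this is a description of probes and not a ranking of miRNA levels. The probes of miR-466i-5p, with runs of 16 and 15 letters, averaged 125 and 101. Those of miR-574-5p with runs of 11 and 10 averaged 50.2 and 30.5, and those of miR-3082-5p with runs of 10 and 9 averaged 27.2 and 17.1. For miR-1187 runs of 9 and 8 gave 23.0 and 10.5. In each of these names the probe with the longer run was the brighter one. It was also the longer probe each time, so run length and probe length cannot be told apart here.

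Probes with equally long runs differed widely. The probes of miR-466a-5p and miR-466p-5p with CA runs of 9 averaged between -1.90 and -0.142, and that of miR-32-3p, outside the families, at most 3.75. Among the 9 member probes with CA runs of 8 or 9 the median was 1.01 and the highest value 20.6, from miR-669n. The 26 member probes with CA runs of 6 or 7 had a median of 1.90 and none averaged above 10 (0).

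Among members, GT runs, which read AC-rich strands, had lower medians than CA runs of like length up to 9 letters. At 6 or 7 letters the median was -1.91 against 1.90, and at 8 or 9 letters it was -1.23 against 1.01. No member probe had a CA run of 10 to 12 letters. The 14 member probes with GT runs of 10 to 12 letters had a median of 11.8, from -5.16 to 26.3, and 8 of them averaged above 10. The 34 with runs of 8 or 9 had a median of -1.23, and 3 averaged above 10, all of miR-467a-3p. miR-467f with a run of 12 averaged 22.0, the 4 probes of miR-669p-3p with runs of 12 averaged 12.5 to 13.2 without the name being flagged, and that of miR-669c-3p with a run of 12 averaged 2.97. The same run thus gave different signals in names that differ by a few letters beside it.

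Probes of one name that differ by a few letters in length also differed in signal. In all 9 detected members the longest probe was brighter than the shortest, as it was in 41 of the 51 never-detected names with probes of different length. These counts include differences below background. For miR-466d-3p the longest and shortest probes averaged -2.40 and -5.55, and for the never-detected miR-466k -2.94 and -4.19. For miR-669f-3p, the 18-letter probe averaged 26.3 and the 17-letter probe 2.27, with the same GT run of 10 letters in both. For miR-467a-3p, probes of 17, 18, 19 and 20 letters averaged 8.68, 12.1, 15.4 and 22.8.

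**Figure D4:**
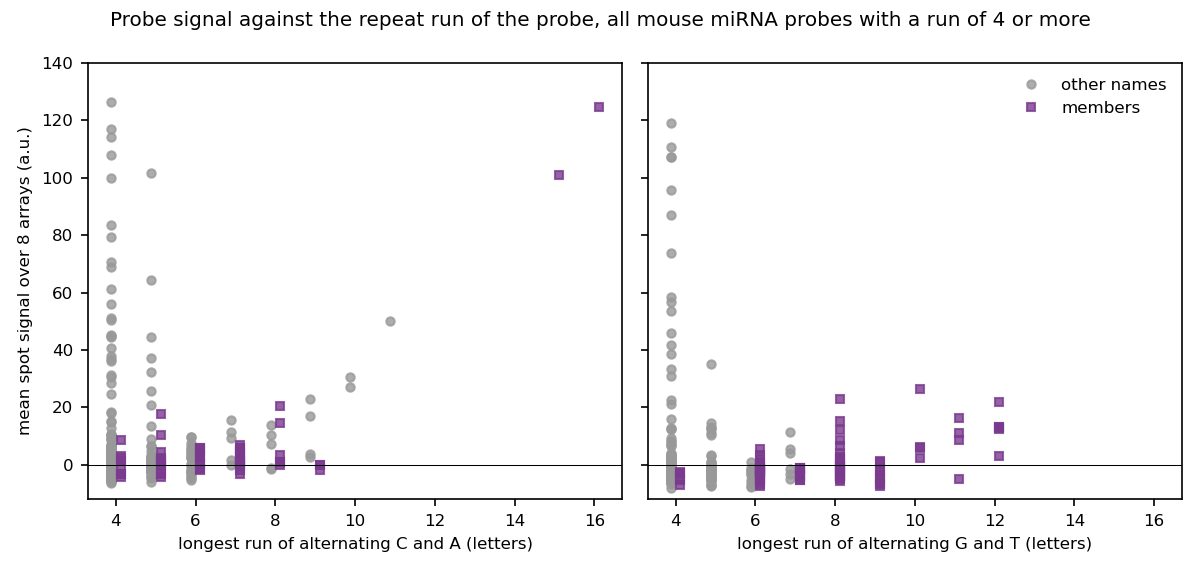
Mean spot signal over 8 arrays (arbitrary units, linear axis to 140) of all mouse probes with an alternating run of at least 4 letters, against the longest run of C and A (left) or of G and T (right); squares are members and circles other names, and 35 of 437 and 23 of 320 probes lie above the axis. In the left panel the 2 probes of miR-466i-5p stand at runs of 15 and 16 with signals of 101 and 125, and in the right panel the member probes with the longest runs, 12 letters, lie below 23.

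Some probes of the group are exact complements of another member. All 4 probes of miR-466f-3p, of 14 to 17 letters, match the RefSeq mature sequence of miR-466i-3p in full, and both probes of miR-669f-5p match that of miR-466j. Both probes of miR-669b-5p and all but the longest of miR-466f-5p also match miR-466j in full, and both of miR-466p-5p match miR-466k. None of these names was flagged. The brightest probes of miR-466f-3p and miR-669f-5p averaged 5.77 and -0.289, and the brightest of miR-466i-3p and miR-466j averaged 6.13 and 1.15. For the detected miR-467a-3p, the longest complement of its 20-letter probe in another RefSeq miRNA was 15 letters, in miR-467g, whose own probes averaged at most -3.56. That of the 18-letter probe of miR-669f-3p was 13 letters, also in miR-467g. The probe of miR-467b-5p had at most 9 complementary letters in any other RefSeq mature miRNA on the array, and 6 in any tested one. RefSeq mature sequences were found for 6 of the 61 members, so most relatives were not searched. These lengths therefore do not show that a probe is specific. The probe of miR-467a-5p shares most of its letters with that of miR-467b-5p. Those of miR-467c-3p, miR-467d-3p and miR-467e-3p likewise share most of theirs with that of miR-467a-3p. Apart from its first letter, the 17-letter probe of miR-467d-3p lies within the 20-letter probe of miR-467a-3p. It averaged 2.66, and the name was not flagged. The 16-letter run of miR-466i-5p had its complement in 0 of the 1679 mature sequences of the RefSeq table, which does not hold miR-466i-5p itself, and in 1 of 1005 hairpins, that of Mir466k, whose mature miRNA was not flagged. On either strand the run occurs in 148 of 32851 promoter windows (0.451%) from RefSeq, which shows only that these letters are not confined to miRNA genes.

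As a comparison, 19 other names on the array have UGUGUG or ACACAC in their RefSeq mature sequence, 12 the former and 7 the latter. Of these, 5 (26.3%) were detected on at least 1 array and 3 on all 8, which were let-7b-5p, miR-362-3p and miR-574-5p. All 3 were tested, and 1 of 3, miR-574-5p, was called, with the limits given above. The differences of let-7b-5p (0.09, limma adjusted p = 0.646) and miR-362-3p (0.12, limma adjusted p = 0.468) were not called.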

How the data were processed

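RNA of 8 kidney samples was measured on Agilent one-colour miRNA arrays. The authors deposited scanner output of Feature Extraction (version 10.7.3.1 per the file headers), software that subtracts background and removes spatial trends. Its values are intensity on a linear scale, with detection flags beside them, and are not scaled between arrays. The authors' deposited value table equalled the software's total gene signal intensity in 100% of cells (tolerance 1e-06), with names not detected at 0.1. limma is named in the submitters' processing notes, without a version.

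From these, spots flagged as outliers were left out (7.36% to 11.2% per array), none was saturated (0), and the 10 to 40 spots of a probe were averaged. Signals were divided by each array's 75th percentile over 252 probes that every array detected, a floor of -5.96 (log2) was set, and each name was taken by its brightest probe. Differences are tacrolimus minus control, fitted with limma 3.58.1 in R 4.3.3 with no covariate, two-sided, 9.16 degrees of freedom, threshold 0.05, Benjamini-Hochberg adjustment over 194 names. The fit was tested on simulated data. The number of arrays limits the precision. Every member flagged on at least 1 array is named, as are at most 3 others a family. Probe sequences and places (mm9) are the array files' own; RefSeq tables are of GRCm38.p6. The members, lists and tests were chosen with earlier results of these data known. Other scalings, filters, probe summaries, background corrections, a replicate block and leaving out each array were tried.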

Additional observations from a re-analysis of the deposited data

Results flagged for a closer look

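Dixon's test for 1 array far from the other 3 of its group was applied to the scaled levels of the detected members, in the 4 groups of 4 arrays whose values were not all at the floor. It marked 2 of the 4, where chance marks 5% of groups (0.2 of 4). For miR-466i-5p, control 3 lay 0.52 log2 units above the mean of the other control arrays, at -3.82. For miR-467b-5p, control 4 lay 0.034 above the other 3, which were all at the floor, so the mark rests on the floor. Both were controls, 1 on the array with a negative control SD of 9.69 and 1 on an array with the narrower spread, and the part of array noise in them was not tested.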

How the results depend on the processing

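The difference of miR-466i-5p stayed above 0 and past no threshold under all 22 alternatives. It ranged from 0.15 with normexp background correction to 0.52 with no scaling, and its limma adjusted p from 0.109 to 1. Leaving out each array in turn gave 0.28 to 0.49, the latter without control 3. With the replicate number as a block (replicate block) it was 0.37, with a limma adjusted p of 0.252, and the names called over the whole array went from 6 to 0, which ends the call of miR-574-5p. The numbers are also the slide columns, and same-numbered arrays deviated together only weakly (correlations of 0.10 to 0.14 over 194 names), with 2 of 8 arrays closest to their own number, and the samples were analysed without the block. The count of members called was 0 under every alternative. Names called over the whole array ran from 0 to 8 and were 0 in 14 of 22 alternatives, among them the one with no filter, where most members stand at the floor and could not be called. When detection was taken as at least 0.5 of the brightest probe's spots well above background, 3 members were detected in place of 9 over all arrays, 3 in place of 7 on control arrays and 3 in place of 8 on tacrolimus arrays. Leaving out single arrays gave 8 to 9, 6 to 7 and 7 to 8. Of the 18 levels of detected members by group, 14 stand at the floor on all 4 arrays and have no spread against which a change of scale could be judged. Signals within a few errors of background limit all members except miR-466i-5p.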
